A study of Mus musculus with 4 samples.

Results

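The BMP genes described here are 10 of the 32285 mouse genes counted in each library, chosen by symbol. They are the ligands Bmp2, Bmp4, Bmp5 and Bmp6, the secreted modulator Bmper, the type I receptors Bmpr1a and Acvrl1, the type II receptor Bmpr2, the co-receptor Eng and the target gene Id1. The set is thus wider than ligands and receptors, since Bmper is an extracellular BMP-binding protein and Id1 a transcriptional regulator that BMP signalling switches on. All 10 symbols were found in the files. RNA from single nuclei was sequenced from livers of male mice that received DDC, a diet that injures the bile ducts and provokes a ductular reaction with fibrosis, starting at 10 to 11 weeks of age and lasting 4 weeks. In the CKO mice Rbpj, which encodes the DNA-binding protein that carries Notch signals to their target genes, was knocked out in hepatic progenitor cells, and 2 libraries came from them. The WT group was wild type and also gave 2 libraries. Both groups received DDC, and livers without it were not analysed here. The labels give neither the Cre driver nor the deleted exons, and do not say whether libraries of a group came from separate animals, so p-values measure the spread between these libraries, which may be technical.

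Bone morphogenetic proteins are secreted dimers that join a type I receptor, such as BMPR1A or ALK1 (the product of Acvrl1), to a type II receptor such as BMPR2. The type I receptor then phosphorylates SMAD1, SMAD5 and SMAD9, which enter the nucleus with SMAD4 and raise the Id genes and their own inhibitors Smad6 and Smad7. In the liver, BMP2 and BMP6 from sinusoidal endothelial cells act on hepatocytes to raise Hamp, the gene for the iron hormone hepcidin, while BMP9 and BMP10 act on endothelial cells through ALK1 and endoglin, the product of Eng.

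The 4 libraries held 16000 and 5184 barcodes (CKO replicates 1 and 2) and 16000 and 6480 barcodes (WT replicates 1 and 2), with 38003108, 12261329, 45620141 and 13914845 unique molecular identifiers (UMIs) in the same order. Pairs of libraries shared 19 to 114 barcode sequences. Of 39017 barcodes kept after removal of doublets, 18251 fell in clusters whose markers gave a class name, and the clustering left out the BMP genes. Class names mean resemblance to markers. Free RNA was estimated in each library from its barcodes that took no class name. The clusters of these barcodes had median UMIs of 0.87 to 0.96 times the library median, so they may hold nuclei too. By this estimate, free RNA made up more of the UMIs in CKO than in WT libraries in sinusoidal-like nuclei (80.4% and 83.6%, against 72.8% and 75.8%). Hepatocyte markers likewise summed to 36135 and 26420 CPM (UMI counts scaled to the same fixed total in every sum) in CKO sinusoidal-like nuclei, against 23502 and 21410 CPM in WT, while the 10 sinusoidal markers summed to 3030 and 2977 CPM in CKO and 5025 and 4005 CPM in WT. Hepatocyte-like nuclei of each library fell mostly in a cluster of their own, and most endothelial-like and macrophage-like nuclei of CKO replicate 1 did so too, so CKO replicate 1 stood apart most widely. The genes Cux2 and Prlr were picked after their values were seen and are known to be more abundant in female mouse liver. In hepatocyte-like nuclei of CKO replicate 1 they stood at 237 and 1305 CPM, against at most 1.06 and 213 CPM in the other 3 libraries. The Y-linked gene Ddx3y was nevertheless present in hepatocyte-like nuclei of all 4 libraries (64.9 to 87.7 CPM). Rbpj itself stood at 72.6 and 29.7 CPM in CKO cholangiocyte-like nuclei, against 80.5 and 68.3 CPM in WT (log2 change -0.09, SE 0.29). These values came from 107 and 2 UMIs in CKO and 367 and 44 UMIs in WT. The 3' tags do not test the deletion of an upstream exon.

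Levels below are CPM, the UMIs of a gene scaled to all UMIs summed over the nuclei of a class in a library. Each gene is read across classes, since levels of different genes depend on their length and 3' ends in such data. A class was set apart from its neighbour in the order only where the ranges over the 4 libraries did not overlap. Fewer nuclei with a transcript and fewer transcripts per nucleus cannot be told apart in such sums. The share that free RNA would supply is given where it bears on a level, and a class at or near 100% has no RNA of its own that these data can show. Some shares exceeded 100% (116% for Bmp5 in macrophage-like nuclei), so the estimate can be too large. The order was made over the 6 classes with at least 20 nuclei in each library, from 27 vessel-like nuclei in CKO replicate 2 to 2698 macrophage-like nuclei in WT replicate 1.

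**Figure D1:**
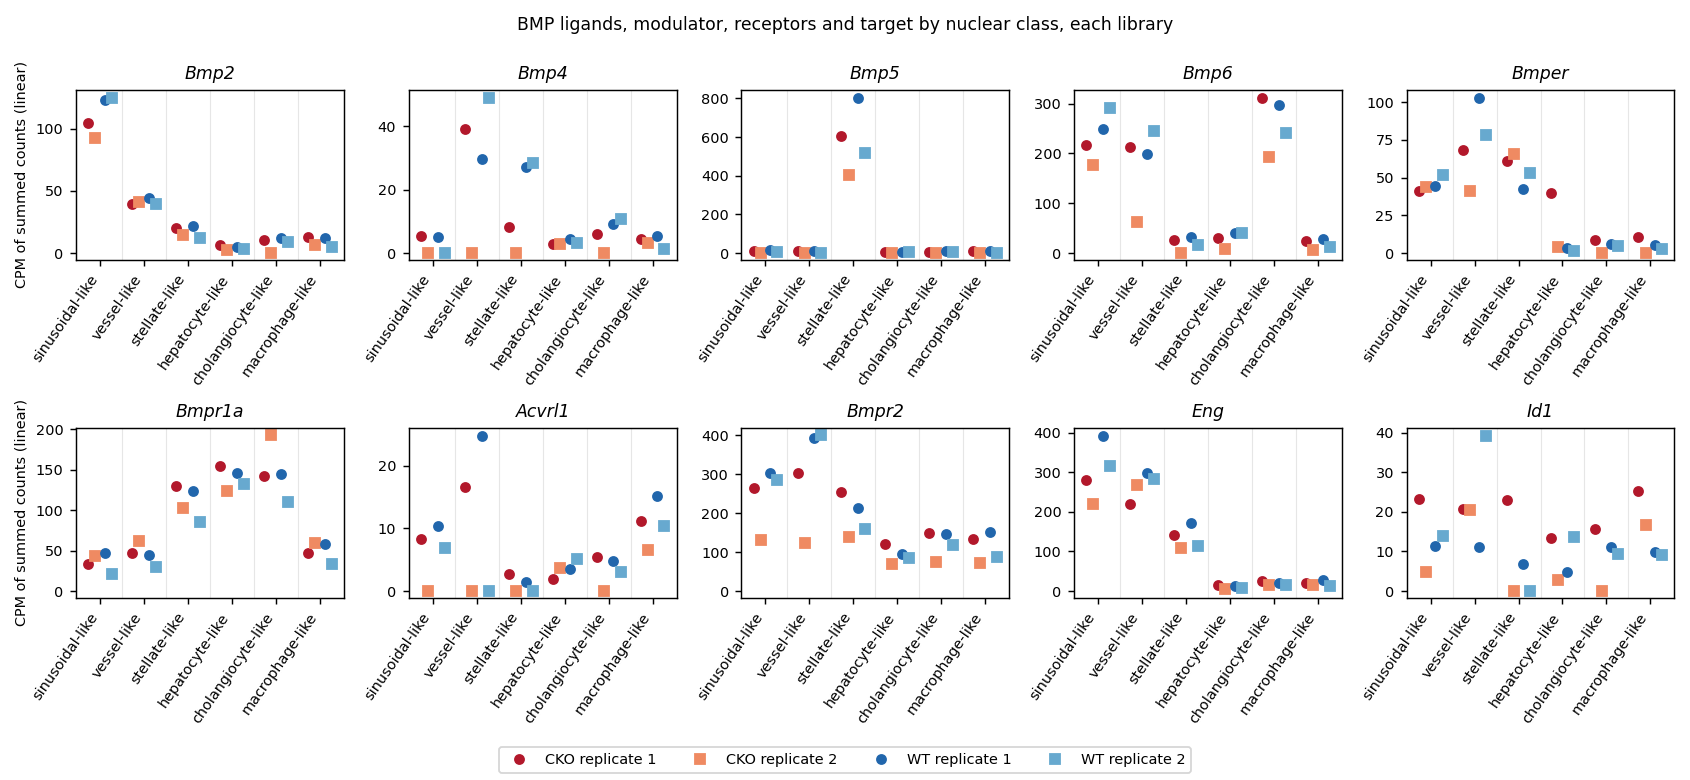
Level of each BMP gene (CPM of summed UMIs, linear scale) in 6 cell classes, with 1 point per library, CKO left of WT. Bmp5 is highest in stellate-like and Bmp2 in sinusoidal-like nuclei in all 4 libraries.

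Bmp2 (chr2:133552159-133562885, plus strand, GRCm38) was a sinusoidal gene in these livers. In sinusoidal-like nuclei it stood at 104 and 92.9 CPM in the CKO libraries, against 123 and 125 CPM in the WT libraries, from 139, 19, 259 and 36 UMIs. Both CKO values lay below both WT values, but the fitted change was small against its error (log2 -0.13, SE 0.28). The vessel-like class came next at 39.3 and 41.2 CPM in CKO and 44.6 and 39.2 CPM in WT. Its largest sub-cluster (361 nuclei) had 9 of 10 sinusoidal markers raised over free RNA, beside 10 of 11 vessel markers. The class therefore cannot be read as larger vessels alone. The mean sinusoidal level was 2.71 times the vessel level and the ranges did not overlap. Vessel-like and stellate-like nuclei were also apart, the stellate level being 20.2 and 14.6 CPM in CKO and 21.9 and 12.2 CPM in WT. Of the Bmp2 UMIs in hepatocyte-like and macrophage-like nuclei, free RNA would supply 100% and 99.1%. Among the endothelial sub-clusters the level ranged over the sinusoidal ones from 96.9 to 162 CPM. It was 58.3 CPM in a vessel sub-cluster with Vegfc among its leading genes, 41.1 CPM in one led by Rspo3, and 11.7 CPM (4 UMIs) in one led by Col8a1, with the arterial gene Bmx among its leading genes.

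Bmp6 (chr13:38345107-38500302, plus strand), the ligand best known for iron sensing, had 3 high classes. In cholangiocyte-like nuclei, the bile duct epithelium that DDC expands, it stood at 312 and 193 CPM in CKO, against 297 and 240 CPM in WT (459, 13, 1356 and 155 UMIs). Sinusoidal-like nuclei had 218 and 176 CPM in CKO and 249 and 291 CPM in WT. Vessel-like nuclei had 213 and 61.7 CPM in CKO and 199 and 245 CPM in WT, where the low CKO value rests on 3 UMIs. These 3 classes overlapped one another, and free RNA would supply 6.15% of the cholangiocyte and 9.83% of the sinusoidal UMIs. Among endothelial sub-clusters the Col8a1-led vessel one had 260 CPM and the Rspo3-led one 187 CPM. Both cholangiocyte clusters carried the transcript, at 281 CPM in the larger, where Pkhd1 and Cftr were among the leading genes, and 347 CPM in the smaller, led by Dab1. The smaller one was higher in 4 of 4 libraries, but it held only 2 nuclei of CKO replicate 2. Hepatocyte-like nuclei came after vessel-like nuclei without overlap, the mean of the vessel class being 6.05 times that of hepatocytes. Their values were 30.8 and 7.60 CPM in CKO, against 39.4 and 41.0 CPM in WT. CKO replicate 2 was the low library there, and both CKO values lay below both WT values. Free RNA would supply 24.1% of the hepatocyte UMIs. Stellate-like and macrophage-like nuclei had at most 32.5 CPM, and free RNA would supply 86.6% of the macrophage UMIs.

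Bmp5 (chr9:75775364-75900310, plus strand), a ligand of the BMP5 to BMP7 subgroup, was a mesenchymal gene with a wide gap to every other class in the order. In stellate-like nuclei, the retinoid-storing pericytes of the sinusoid, it stood at 606 and 402 CPM in CKO, against 803 and 520 CPM in WT (449, 55, 1063 and 128 UMIs). The groups overlapped, since CKO replicate 1 lay above WT replicate 2. The mean was 68.8 times that of the next class in the order, sinusoidal-like nuclei, and stellate-like nuclei held 68.3% of the 2481 Bmp5 UMIs in named nuclei. Portal fibroblast-like nuclei, the matrix-producing cells of the portal tract, had 228 and 0 CPM in CKO and 301 and 113 CPM in WT, where the 0 comes from a library with 1 such nucleus. The other classes in the order had at most 15.7 CPM each, of which free RNA would supply 72.7% or more. Within the stellate class the level ranged from 293 CPM in a sub-cluster led by Plcxd3 to 929 CPM in one led by Lsamp (95% Poisson interval 846 to 1017 CPM, counting error only). That Lsamp-led sub-cluster held 22 and 6 nuclei in CKO and 129 and 23 in WT. It had 9 of 11 stellate markers raised over the other mesenchymal sub-clusters, the most of any. The 2 portal fibroblast sub-clusters stood at 186 and 325 CPM.

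The 250 bases before the Bmp5 start are shown because Bmp5 had the largest gap between neighbouring classes among the 10 genes (RefSeq, GRCm38.p6, chr9:75775115-75775364, plus strand, with GTCTG in capitals, a motif that holds the GTCT box which SMADs bind).
Bmp5: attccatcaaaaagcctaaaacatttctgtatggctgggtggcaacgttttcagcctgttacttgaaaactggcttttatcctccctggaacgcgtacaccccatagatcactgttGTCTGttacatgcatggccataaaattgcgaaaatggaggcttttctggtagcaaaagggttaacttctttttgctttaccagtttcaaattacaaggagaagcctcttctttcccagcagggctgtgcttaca
They had a GC content of 42.8%, against a median of 52.4% over 32851 mouse promoters of that length. The motif began 134 bases before the start, on the plus strand. GTCTG on either strand is in 42.2% of all promoters, and GGCGCC, the core of many BMP-responsive elements and its own reverse complement, in 9.59%. GGCGCC is not in these letters.

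Bmp4 (chr14:46383520-46390669, minus strand), a ligand of the BMP2 subgroup, was sparse. Vessel-like nuclei had 39.3 and 0 CPM in CKO and 29.7 and 49.0 CPM in WT, from 19, 0, 24 and 5 UMIs, and the 0 allows up to 61.7 CPM. These transcripts lay mostly in the vessel sub-cluster of 109 nuclei led by Rspo3, where Wnt9b, a Wnt ligand of central veins in mouse liver, was also among the leading genes. It held 35 of the 68 endothelial UMIs and stood at 131 CPM (95% Poisson interval 91.0 to 182 CPM, counting error only). By library it had 169 and 0 CPM in CKO and 96.3 and 222 CPM in WT, the 0 coming from 4 nuclei. Each other endothelial sub-cluster had at most 23.4 CPM. In stellate-like nuclei Bmp4 stood at 8.09 and 0 CPM in CKO, against 27.2 and 28.4 CPM in WT (6, 0, 36 and 7 UMIs), with the 0 allowing up to 21.9 CPM. Both CKO values lay below both WT values. Free RNA would supply 17.2% of the stellate UMIs.

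**Figure D2:**
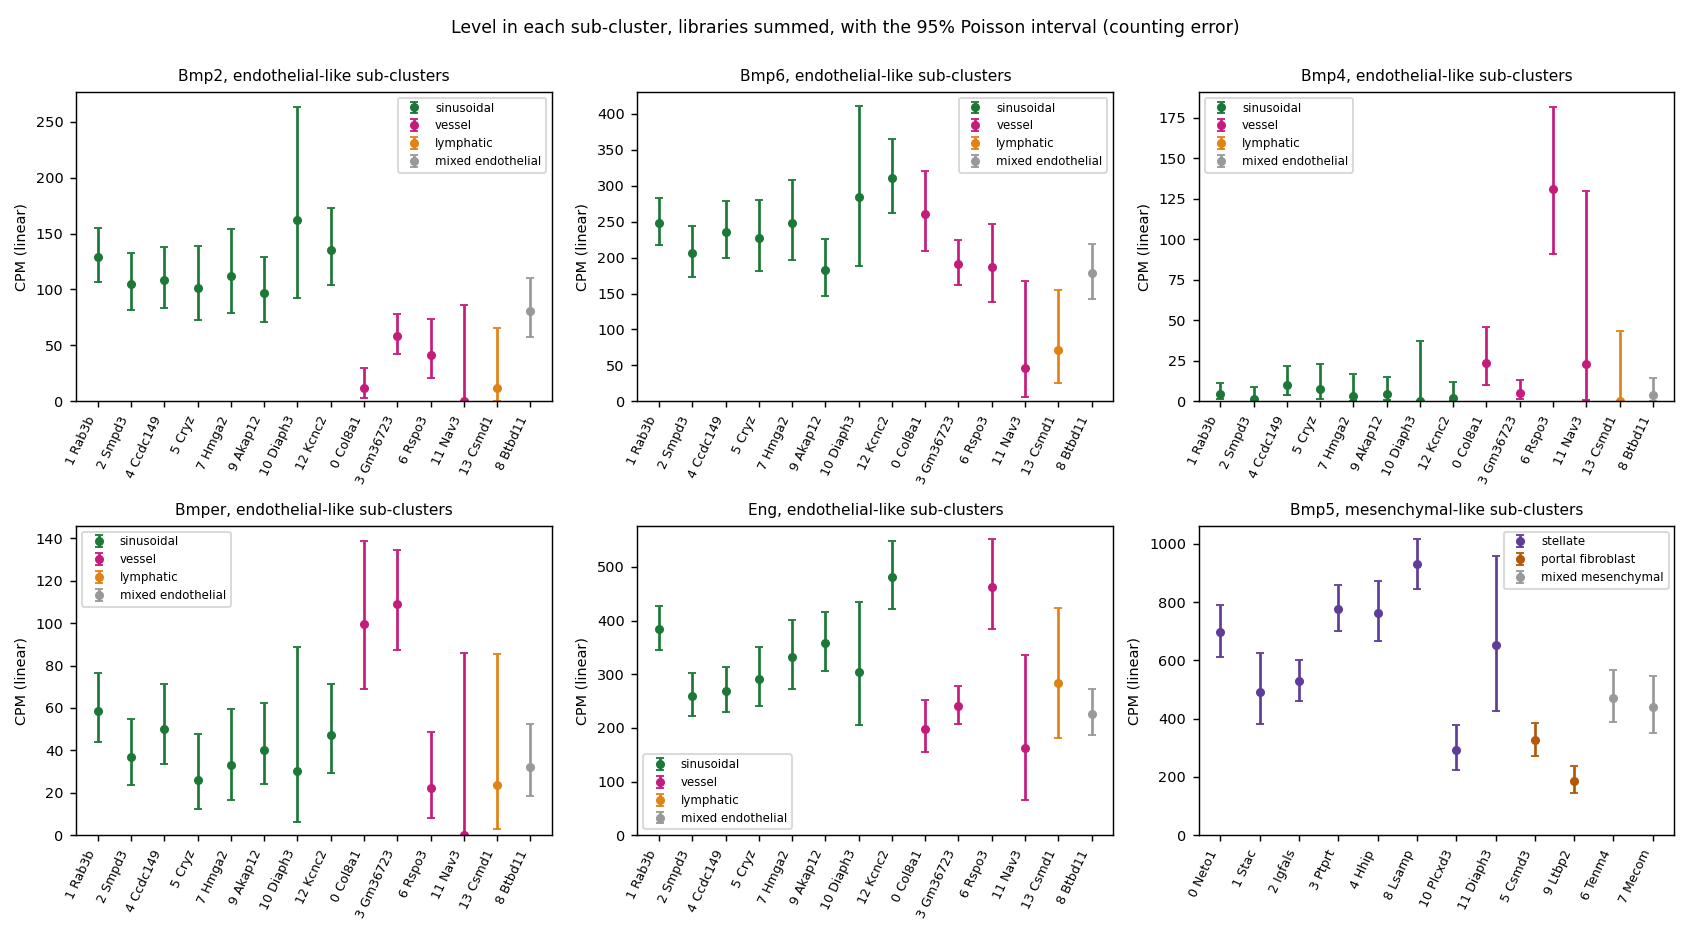
Levels (CPM, linear scale, summed over the 4 libraries) of Bmp2, Bmp6, Bmp4, Bmper and Eng in endothelial and of Bmp5 in mesenchymal sub-clusters, each named by number and leading gene, with 95% Poisson intervals that cover counting error only. Bmp4 is highest in the Rspo3-led vessel sub-cluster, Bmp2 in sinusoidal sub-clusters, and Bmp5 in the Lsamp-led stellate sub-cluster.

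Bmper (chr9:23223076-23485200, plus strand) binds BMPs outside the cell and, in mouse, can either limit or promote their signals. It was a gene of vessel-like, stellate-like and sinusoidal-like nuclei. Vessel-like nuclei had 68.2 and 41.2 CPM in CKO and 103 and 78.3 CPM in WT. Stellate-like nuclei had 60.7 and 65.8 CPM in CKO, against 42.3 and 52.8 CPM in WT (45, 9, 56 and 13 UMIs), and both CKO values were the higher ones. Sinusoidal-like nuclei had 41.3 and 44.0 CPM in CKO and 44.7 and 52.0 CPM in WT. These 3 classes overlapped one another. Within the endothelium Bmper was highest in the vessel sub-clusters with Vegfc (109 CPM) and Col8a1 (99.4 CPM) among their leading genes, and stood at 22.4 CPM in the Rspo3-led one, the sub-cluster in which Bmp4 was highest.

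Hepatocyte-like nuclei gave a different picture for Bmper, in 1 library. The level was 39.8 and 3.89 CPM in CKO, against 3.68 and 1.62 CPM in WT, from 200, 22, 39 and 7 UMIs. CKO replicate 1 alone stood high, and CKO replicate 2 was next to WT replicate 1. In CKO replicate 1, 133 of 933 nuclei had a Bmper UMI, with up to 7 in a nucleus, against 22 of 1670 in CKO replicate 2, 37 of 1784 in WT replicate 1 and 6 of 1140 in WT replicate 2. Free RNA would supply 17.6% of the UMIs, and macrophage-like nuclei of the same library had 10.4 CPM. This is the library whose hepatocyte-like nuclei stood apart in Cux2 and Prlr, and the part of that difference in the Bmper level was not tested.

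Among the receptors, Bmpr1a (chr14:34410734-34503341, minus strand), the type I receptor ALK3, which hepatocytes need for hepcidin in mice, was an epithelial and stellate gene. Cholangiocyte-like nuclei had 142 and 193 CPM in CKO and 145 and 110 CPM in WT. Hepatocyte-like nuclei had 155 and 124 CPM in CKO and 147 and 132 CPM in WT. Stellate-like nuclei had 129 and 102 CPM in CKO and 124 and 85.3 CPM in WT. The ranges of these 3 overlapped, and the stellate mean was 2.21 times that of macrophage-like nuclei, without overlap. In sinusoidal-like nuclei, the class with the highest Bmp2, Bmpr1a stood at 33.8 and 44.0 CPM in CKO and 47.1 and 20.8 CPM in WT, and free RNA would supply 99.9% of those UMIs.

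Bmpr2 (chr1:59763400-59879014, plus strand), which pairs with BMP type I receptors, was present in every class with no gap in the order. Vessel-like nuclei had 304 and 123 CPM in CKO and 393 and 402 CPM in WT, and sinusoidal-like nuclei 264 and 132 CPM in CKO and 303 and 284 CPM in WT. Hepatocyte-like nuclei were at the low end with 122 and 69.2 CPM in CKO and 96.3 and 84.1 CPM in WT. CKO replicate 2 was the lowest library in each of the 6 classes with at least 20 nuclei per library, hepatocyte-like nuclei included.

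Acvrl1 (chr15:101128522-101145336, plus strand), the type I receptor for BMP9 and BMP10, had at most 24.8 CPM in each class of the order. Vessel-like nuclei had 16.5 and 0 CPM in CKO and 24.8 and 0 CPM in WT, where the values of 0 allow up to 61.7 and 29.4 CPM. Sinusoidal-like nuclei had 8.27 and 0 CPM in CKO and 10.5 and 6.93 CPM in WT, where the 0 allows up to 14.7 CPM. Macrophage-like nuclei had 11.2 and 6.62 CPM in CKO and 15.1 and 10.4 CPM in WT. No neighbouring classes were set apart, so these counts do not show the endothelial enrichment for which Acvrl1 is known. Free RNA would supply 25.8% of the macrophage, 39.8% of the sinusoidal and 18.0% of the vessel UMIs.

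Eng (chr2:32646595-32682669, plus strand), the co-receptor that presents BMP9 and BMP10 to ALK1, was endothelial and stellate. Sinusoidal-like nuclei had 280 and 220 CPM in CKO, against 392 and 315 CPM in WT (372, 45, 824 and 91 UMIs), both CKO values below both WT values. Vessel-like nuclei had 219 and 268 CPM in CKO and 298 and 284 CPM in WT. Stellate-like nuclei followed at 142 and 110 CPM in CKO and 172 and 114 CPM in WT, with no overlap on either side: the vessel mean was 1.99 times the stellate mean, which was 6.90 times that of cholangiocyte-like nuclei. The endothelial sub-clusters with the highest Eng were a sinusoidal one with Esm1 and Angpt2 among its leading genes (482 CPM) and the Rspo3-led vessel one (463 CPM), and the Col8a1-led vessel one had 199 CPM.

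The 250 bases before the Eng start are shown as the promoter of a gene that stood apart in endothelial and stellate classes alike (RefSeq, GRCm38.p6, chr2:32646345-32646594, plus strand, with GTCTG and its reverse complement CAGAC in capitals).
Eng: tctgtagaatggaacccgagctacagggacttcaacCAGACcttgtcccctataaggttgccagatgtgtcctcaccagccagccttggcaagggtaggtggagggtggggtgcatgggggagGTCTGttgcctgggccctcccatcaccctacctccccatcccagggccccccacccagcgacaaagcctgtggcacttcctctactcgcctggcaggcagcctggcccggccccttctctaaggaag
They had a GC content of 62.4%. The motif is present on both strands, beginning 214 and 127 bases before the start, and GGCGCC is not in these letters.

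Id1 (chr2:152736251-152737410, plus strand), an inhibitor of basic helix-loop-helix factors and the standard BMP response gene, was low. Vessel-like nuclei had 20.7 and 20.6 CPM in CKO and 11.1 and 39.2 CPM in WT. These came from 24 UMIs in all, of which free RNA would supply 79.6%. Macrophage-like nuclei had 25.2 and 16.6 CPM in CKO, against 9.88 and 9.07 CPM in WT (128, 5, 66 and 7 UMIs), both CKO values above both WT values. Free RNA would supply 83.0% of these, and 87.2% of the sinusoidal UMIs, where the level was 23.3 and 4.89 CPM in CKO and 11.4 and 13.9 CPM in WT. Barcodes that took no class name had 27.7 and 2.33 CPM in CKO and 12.2 and 16.7 CPM in WT, so CKO replicate 1 was also the highest library there.

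The comparison of CKO with WT asks how the loss of Rbpj in progenitor cells bears on the BMP genes of each liver cell class. No BMP gene passed the threshold in any class by edgeR's quasi-likelihood test with Benjamini-Hochberg adjustment at 0.05, over 40 of 50 gene and class pairs with enough counts to test. DESeq2 called none of them either, and 3 of the 40 had an unadjusted edgeR p under 0.05. Over all genes, edgeR called 0% of 8641 in sinusoidal-like, 0% of 7170 in stellate-like, 0% of 13390 in hepatocyte-like, 0.204% of 10279 in cholangiocyte-like and 0% of 12191 in macrophage-like nuclei. An unadjusted p under 0.05 was found for 3.84%, 5.45%, 1.79%, 5.89% and 5.21% of the genes of those classes. DESeq2 called 1, 1, 2, 0 and 1 genes in the same order.

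**Figure D3:**
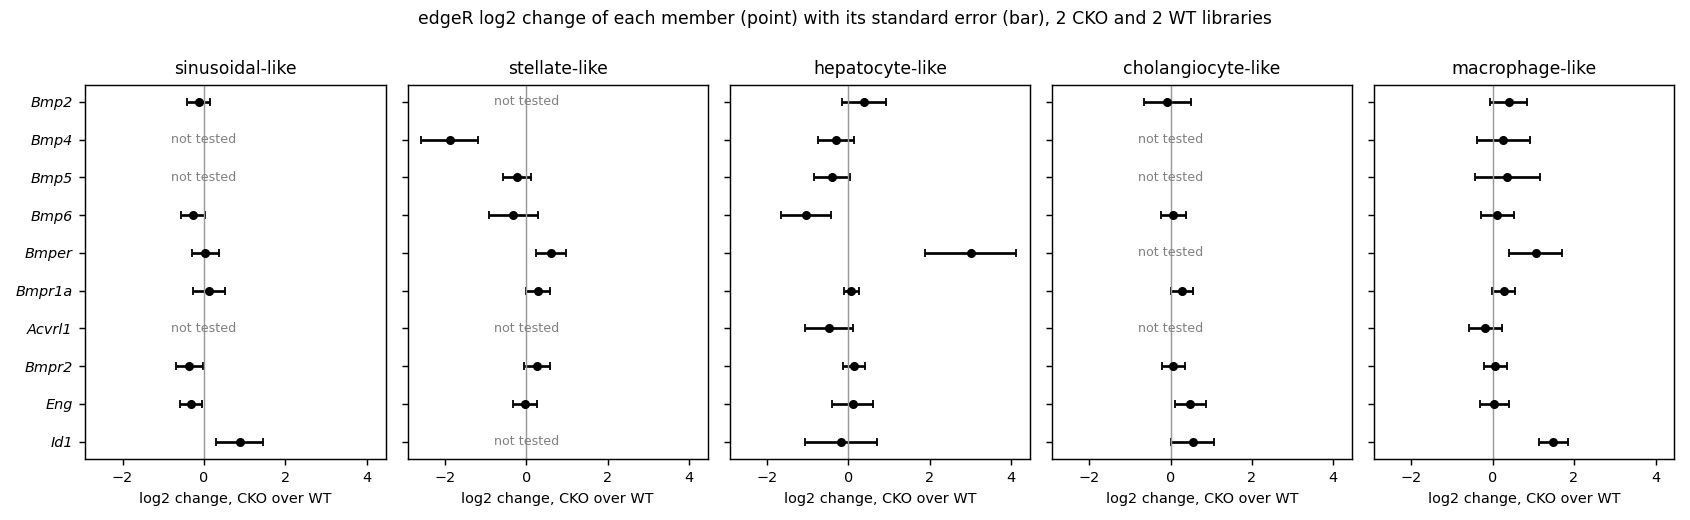
Log2 change of each tested BMP gene, CKO over WT, in 5 cell classes, with bars of 1 standard error from edgeR. Bmper in hepatocyte-like nuclei, Bmp4 in stellate-like nuclei and Id1 in macrophage-like nuclei lie farthest from 0.

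In sinusoidal-like nuclei 7 BMP genes were tested, and in 5 of them both CKO libraries lay below both WT libraries, namely Bmp2, Bmp6, Bmper, Bmpr2 and Eng. That pattern held for 25% of all genes tested in the class, and the reverse for 7.05%. The median log2 change of the 7 was -0.13, with a range from -0.36 (Bmpr2, SE 0.33) to 0.88 (Id1, SE 0.58). With a library left out, the Bmpr2 change ranged from -0.86 to -0.05. Eng was at -0.32 (SE 0.27) and Bmp6 at -0.27 (SE 0.30), each about its own error from 0. Bmper had a fitted change of 0.03 (SE 0.34) after scaling, although its CPM were lower in both CKO libraries. After subtraction of the free RNA the values were 0.080 for Bmp2, 0.010 for Bmp6, -0.23 for Bmpr2, -0.09 for Eng and 0.07 for Bmper. The summed sinusoidal markers lay lower in the CKO libraries as well, and their part in these values was not tested.

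Stellate-like nuclei also had 7 tested genes, 1 with both CKO libraries below both WT libraries (Bmp4) and 1 above (Bmper), against 24.5% and 9.44% of all genes. Bmp4 had a log2 change of -1.88 (SE 0.70, unadjusted p = 0.0218, adjusted p = 0.838 by edgeR). The change was -1.61 without CKO replicate 2 and -1.82 without WT replicate 2, too few counts remained to test it without either replicate 1, and over all mesenchymal-like nuclei it was -1.07. Bmp5 stood at -0.23 (SE 0.34) and Bmper at 0.60 (SE 0.37), with ranges of -0.48 to -0.04 and 0.23 to 0.83 when a library was left out. The median over the 7 was -0.03. The make-up of the class differed between groups. The Lsamp-led sub-cluster held 22 and 6 nuclei in CKO and 129 and 23 in WT. The Hhip-led one held 19 and 0 in CKO and 81 and 22 in WT. The Igfals-led one held 87 and 26 in CKO and 63 and 26 in WT. All stellate-like nuclei numbered 299 and 72 in CKO and 472 and 124 in WT. The part of this make-up in the Bmp4 and Bmp5 values was not tested. The 11 stellate markers summed to 7725 and 5692 CPM in CKO and 9317 and 6798 CPM in WT, and free RNA made up 68.6% and 74.3% of the UMIs in CKO and 57.6% and 63.8% in WT.

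All 10 genes were tested in hepatocyte-like nuclei, with both CKO libraries below both WT libraries for Bmp4, Bmp5 and Bmp6 and above for Bmper, against 16.8% and 7.64% of all genes. Bmper had a log2 change of 3.0 (SE 1.13, unadjusted p = 0.0480, adjusted p = 1.0 by edgeR). With CKO replicate 1 left out, the Bmper value was 0.66. Bmp6 had a log2 change of -1.04 (SE 0.62), with a range from -2.23 to -0.39 when a library was left out. The low end, without CKO replicate 1, had an adjusted p of 0.0193 by edgeR, in a setting that called 272 of 14143 genes and assumes that the remaining CKO library varies as the WT libraries do. The high end, without CKO replicate 2, did not pass the threshold. Bmpr1a stood at 0.07 (SE 0.19).

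In cholangiocyte-like nuclei 6 genes were tested and none had groups that did not overlap, against 20.7% of all genes with both CKO libraries lower and 9.14% with both higher. Bmp6 was at 0.07 (SE 0.31). In macrophage-like nuclei all 10 were tested, 1 of them, Id1, with both CKO libraries above and none with both below, against 6.31% and 26% of all genes. Id1 had a log2 change of 1.49 (SE 0.35, unadjusted p = 0.00252, adjusted p = 0.768 by edgeR). It passed the threshold with CKO replicate 2, which had 5 Id1 UMIs, left out (1.60, adjusted p = 0.000433 by edgeR), where 488 of 13988 genes did so, and over barcodes with at least 2000 UMIs (1.74, adjusted p = 0.0410 by edgeR), where 77 of 11395 genes did so. With free RNA subtracted, Id1 stood at 4.13 and 13.2 CPM in CKO and 1.80 and 0 CPM in WT (21, 4, 12 and 0 UMIs). Most macrophage-like nuclei of CKO replicate 1 were in a cluster of their own with Cd5l among its leading genes. The part of that cluster, and of free RNA, in the size of the Id1 change was not tested.

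Hamp, the hepatic readout of BMP6 signalling, was read in hepatocyte-like nuclei beside the other targets and inhibitors of the pathway. It stood at 713 and 401 CPM in CKO, against 383 and 1218 CPM in WT, so the groups overlapped. Its promoter is shown because it holds the BMP-responsive element through which SMADs are known to raise hepcidin (RefSeq, GRCm38.p6, chr7:30944030-30944279, minus strand, printed 5′ to 3′ along the gene, with GGCGCC and GTCTG in capitals).
Hamp: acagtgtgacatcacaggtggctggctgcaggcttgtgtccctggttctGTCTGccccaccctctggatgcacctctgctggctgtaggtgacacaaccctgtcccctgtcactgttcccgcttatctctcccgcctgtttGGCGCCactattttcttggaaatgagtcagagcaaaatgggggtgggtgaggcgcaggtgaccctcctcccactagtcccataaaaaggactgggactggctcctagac
GGCGCC began 109 and GTCTG 201 bases before the start. Counts of Hamp may include reads of its near-identical copy Hamp2, and free RNA would supply 44.0% of them.

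The libraries with high Hamp, CKO replicate 1 and WT replicate 2, were also the higher ones for some other genes of the pathway, noticed after the values were seen. Among listed genes with at least 20 UMIs in the class, both lay above the other 2 libraries for 4 of 8 targets, 5 of 9 SMADs and inhibitors, 1 of 8 modulators, 0 of 8 receptors and 0 of 3 ligands, and for 10.6% of all 15110 genes with that many UMIs. Hamp, by which the pair was noticed, is itself among those 4 targets, so its place there was fixed in advance. Of the 10 BMP genes described here, 1 had this pattern (10.0%, Id1), near the share of all genes. Id1 in hepatocyte-like nuclei had 13.3 and 2.83 CPM in CKO and 4.81 and 13.7 CPM in WT, with 1 library of each group high. Free RNA would supply 56.8% of these Id1 UMIs. Barcodes that took no class name had the same pair of libraries on top for Id1. Smad7 had 75.6 and 36.1 CPM in CKO and 46.3 and 108 CPM in WT. Atoh8, a transcription factor that responds to BMP6 and iron in mouse liver, had 26.7 and 8.67 CPM in CKO and 14.4 and 21.3 CPM in WT. Id3, Smad9, Id2 and Smad6 had the same pair of libraries on top, Smad6 by a narrow margin (24.3 CPM in WT replicate 2, against 23.5 CPM in CKO replicate 2). Bambi and Smad1 were the others of that pattern among the SMADs and inhibitors. All these genes were listed for that order of libraries, so a top pair with 1 library of each group was fixed by the choice. That pair was not on top for Bmp6, which stood at 41.0 CPM in WT replicate 2 and 39.4 CPM in WT replicate 1. These genes share their libraries and nuclei, and WT replicate 2 also had the highest Saa1, an acute-phase gene picked after its values were seen (70.4 and 112 CPM in CKO, 59.9 and 230 CPM in WT). The part of that was not tested.

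**Figure D4:**
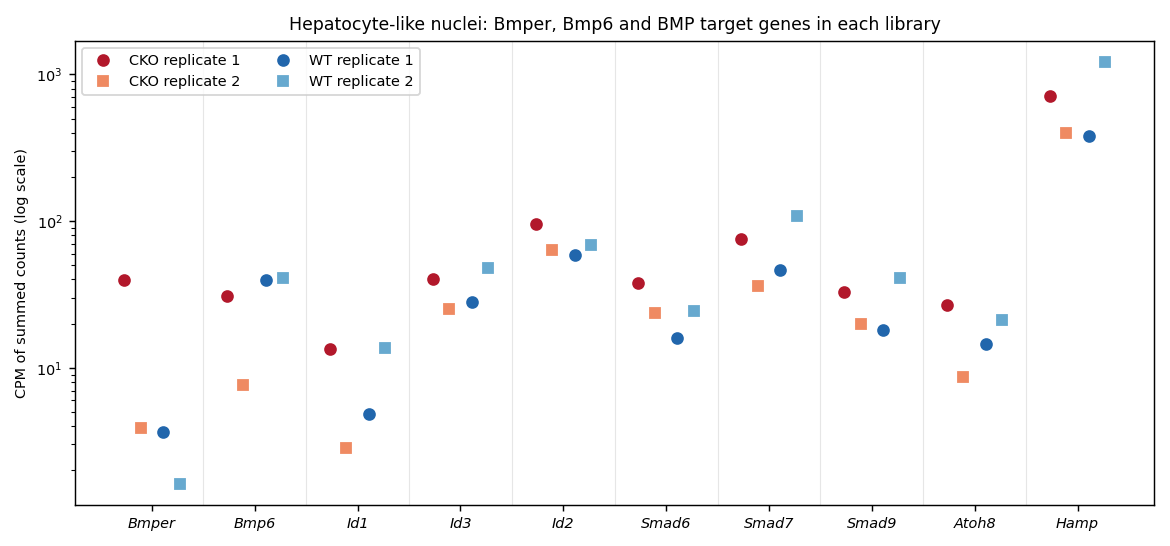
Levels (CPM of summed UMIs, log scale) of Bmper, Bmp6 and 8 targets and SMADs that share the same top pair of libraries in hepatocyte-like nuclei, 1 point per library, CKO left of WT. CKO replicate 1 and WT replicate 2 lie above CKO replicate 2 and WT replicate 1 for those 8, and CKO replicate 1 alone is high for Bmper.

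A further 58 genes of the pathway were listed by role, and none of those tested was called by edgeR in any class (23 tested in sinusoidal-like, 22 in stellate-like, 33 in hepatocyte-like, 28 in cholangiocyte-like and 31 in macrophage-like nuclei). An unadjusted p under 0.05 was found for 2, 2, 0, 4 and 3 of them in the same order. Of the SMADs and inhibitors, Smad6 was endothelial, at 244 and 103 CPM in CKO and 263 and 180 CPM in WT sinusoidal-like nuclei. Among receptors Tgfbr3, the TGF-beta and BMP co-receptor betaglycan, was highest in stellate-like nuclei with 281 and 241 CPM in CKO and 410 and 313 CPM in WT, and Acvr1, the type I receptor ALK2, stood at 166 and 151 CPM in CKO and 138 and 126 CPM in WT hepatocyte-like nuclei. Gdf2, which encodes BMP9, had 38 UMIs in stellate-like nuclei, with 18.9 and 43.9 CPM in CKO and 12.1 and 8.12 CPM in WT.

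Of the listed genes, Id3 in cholangiocyte-like nuclei had 44.1 and 14.8 CPM in CKO, against 16.4 and 15.5 CPM in WT (log2 1.46, unadjusted p = 0.000655, adjusted p = 0.131 by edgeR). CKO replicate 1 had the highest value, and free RNA would supply 90.7% of the Id3 UMIs. In CKO replicate 2 even a count of 0 would allow up to 44.5 CPM, so its value does not set it apart from CKO replicate 1. Id2 in stellate-like nuclei had 112 and 51.2 CPM in CKO, against 48.3 and 36.5 CPM in WT (log2 1.21, unadjusted p = 0.00666), and free RNA would supply 97.9% of it. Crim1, a transmembrane BMP-binding protein, had 112 and 95.1 CPM in CKO stellate-like nuclei, against 205 and 179 CPM in WT (log2 -0.73, unadjusted p = 0.0303). In macrophage-like nuclei the smallest p belonged to Tfr2, Twsg1 and Tmprss6, and in sinusoidal-like nuclei to Hamp2, Id2 and Tmprss6, of which Tfr2, Tmprss6 and Hamp2 are hepatocyte genes by background knowledge.

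The genes most like each BMP gene across classes were sought by the Pearson correlation of log2(CPM + 1) over 20 values, 5 classes in 4 libraries, among 16094 genes. The values share libraries, depth and classes, so this is a description. Bmp2 was most like Ppfia2 (0.98), Plpp1 (0.97) and Flt4 (0.96), and Eng most like Ldb2 (0.98), Adam23 (0.98) and Nav1 (0.97). Flt4, the VEGF-C receptor, is among the sinusoidal markers. Bmp5 was most like Colec10 (0.98), Wdr66 (0.98) and Fgf2 (0.97), and Bmp6 most like Dock1 (0.96), Limk2 (0.95) and Fzd6 (0.93). Bmper was most like Hmcn1 (0.94), Nhsl2 (0.91) and Slc43a3 (0.90), with Hmcn1 also among the genes that led its highest endothelial sub-cluster. Bmp4 (Wdr24, Srf and Rab13, 0.89 to 0.91) and Id1 (Ajuba, Rsad2 and Kctd6, 0.91 to 0.92) rest on few UMIs.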

How the data were processed

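The deposited values are raw UMI counts per gene and barcode, made by the authors from 10x Genomics 3' libraries of nuclei from frozen liver, with paraformaldehyde added to the homogenate per the labels' protocols. Cell Ranger 5.0.1 and the mm10 genome are named in the submitters' processing notes. Counts are not normalised, and library totals ranged from 12261329 to 45620141 UMIs.

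Scrublet scores removed the likely doublets of each library (0.8% per 1000 barcodes). Leiden clustering (scanpy 1.11.5, Python 3.11.15, 2000 variable genes without BMP pathway genes, 30 principal components, resolution 1) gave clusters, which took a class name from at least 3 markers at 1.5 times free RNA or more. For this naming, the 10% of barcodes lowest in UMIs gave the free RNA profile. The free RNA shares and the subtraction instead used the profile of the unnamed barcodes of the same library. That profile was scaled by 18 secreted hepatocyte transcripts, or by mitochondrial transcripts in hepatocyte-like nuclei. Endothelial and mesenchymal nuclei were clustered again to set apart sinusoidal, vessel, stellate and portal fibroblast names. Sums per class and library entered the two-sided quasi-likelihood test of edgeR 4.0.16 in R 4.3.3, with TMM scaling after filterByExpr, and Benjamini-Hochberg adjustment ran over all genes tested in a class. DESeq2 1.42.0, other scalings, no count filter, the replicate block, each library left out, doublets kept, free RNA subtracted, wider classes, a depth minimum and BMP genes among the clustering genes were the alternatives, the last pair chosen after seeing the data. The fit was tested on simulated data. A level of 0 allows up to 3 UMIs of a class total, and Poisson intervals and these limits cover counting error only. Coordinates are from GENCODE M21 (GRCm38), in which 32158 of 32285 genes were found, and promoters from RefSeq (7 of 10 BMP genes matched).

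Named genes are the 10 BMP genes in each class, Rbpj, per class the 3 listed pathway genes with the smallest p and those with the highest level of their list, and the 3 genes most like Bmp2, Bmp4, Bmp5, Bmp6, Bmper, Eng and Id1, of which the text gives a part. Some genes under this rule are not reported here. Members, markers and lists were chosen with earlier results of these data known.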

Additional observations from a re-analysis of the deposited data

Results flagged for a closer look

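The CPM of Bmper lay on opposite sides in different classes, although the fitted changes had the same sign in both (0.60 in stellate-like and 0.03 in sinusoidal-like nuclei). The log2 of the mean CPM in CKO over WT was 0.41 in stellate-like nuclei and -0.18 in sinusoidal-like nuclei, a difference of 0.59, with both CKO libraries above both WT libraries in the first class and below them in the second. In hepatocyte-like nuclei it was 3.04, which is 3.22 above the sinusoidal value. These differences between classes were not tested. With free RNA subtracted, the groups overlapped in stellate-like nuclei (51.3 and 65.8 CPM in CKO, 38.5 and 52.8 CPM in WT) and in sinusoidal-like nuclei (30.8 and 44.0 CPM in CKO, 40.4 and 52.0 CPM in WT). CKO replicate 1 carried the hepatocyte value.

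An added vector sequence among the counted features, named Neo-PIGCN21AN, is outside the comparisons above. It had 100 and 20 UMIs in the CKO libraries and 36 and 1 in the WT libraries, which is 2.63 and 1.63 CPM of all UMIs of the library in CKO, against 0.789 and 0.0719 CPM in WT. The lower CKO library, at 1.63 CPM, was above both WT libraries, and the sequence was picked from 7 added ones for that reason. Other added sequences did not have this order. EYFP had 20 and 39 UMIs in CKO and 265 and 8 in WT. The sequence named eGFPcre had 5 and 4 UMIs in CKO and 54 and 0 in WT. Both were highest in WT replicate 1. What these sequences mark in these mice is not given in the labels.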

How the results depend on the processing

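Over 40 pairs of a BMP gene and a class, 458 alternative values were computed, of which 408 kept direction and side of the threshold, 47 turned direction (28 of them with a library left out) and 3 passed the threshold. The 19 pairs that turned had changes of at most 0.49 (log2) in size. Depth limits the levels of CKO replicate 2, with 27 to 162 nuclei in each class of the order but hepatocyte-like nuclei. Over the 10 genes, 8 pairs of neighbouring classes were set apart, 7 with BMP genes among the clustering genes and 10 with free RNA subtracted. The planned minimum of 1000 UMIs removed no barcode and gives no values.

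Counts of genes called were, for sinusoidal-like nuclei (0 by edgeR), 1 with DESeq2, 44 without the count filter, 3 with at least 2000 UMIs, 2 with the replicate block and 0 to 168 with a library left out. Stellate-like nuclei (0) gave 1 with DESeq2, 45 without the filter, 23 with the block and 0 to 179 with a library left out. Hepatocyte-like nuclei (0) gave 2 with DESeq2 and 0 to 272 with a library left out. Cholangiocyte-like nuclei (21) gave 0 with DESeq2, 117 without the filter, 1 with free RNA subtracted, 133 with at least 2000 UMIs, 29 with the block and 0 to 182 with a library left out. Macrophage-like nuclei (0) gave 1 with DESeq2, 129 without the filter, 77 with at least 2000 UMIs and 0 to 488 with a library left out. The left-out library mattered in each class: in the order of classes above, 162, 132, 272, 17 and 147 genes were called without CKO replicate 1, 168, 179, 2, 182 and 488 without CKO replicate 2, 0, 11, 0, 0 and 0 without WT replicate 1, and 0, 0, 0, 7 and 39 without WT replicate 2, where the lone library of a group is assumed to vary like the others. The median log2 change of all genes in cholangiocyte-like nuclei was -0.02 as reported, -0.14 without the filter, 0.10 with DESeq2 and -0.21 without CKO replicate 1. The cause of these differences was not tested. Labels do not pair the replicate numbers, and deviations of same-numbered libraries correlated at 0.130, 0.123, 0.269, 0.0776 and 0.130 across genes.

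Values that turned direction (log2) were, with free RNA subtracted, Bmp2 0.080 and Bmp6 0.010 in sinusoidal-like and Eng 0.17 in stellate-like nuclei. With at least 2000 UMIs they were Bmp2 0.17, Bmper -0.11 and Bmpr1a -0.50 (sinusoidal), Eng 0.021 (stellate) and Eng -0.24 (macrophage). With DESeq2 they were Bmper -0.0051 (sinusoidal), Bmpr2 -0.081 (cholangiocyte) and Bmp6 -0.014 (macrophage). With the replicate block they were Bmp6 -0.0085 and Bmpr2 -0.046 (cholangiocyte), and Bmp6 -0.0076 and Eng -0.00091 (macrophage). With doublets kept, Eng was 0.14 (stellate) and -0.078 (hepatocyte). Over all endothelial nuclei Bmper was -0.056, and over all mesenchymal nuclei Bmp5 was 0.10. With a library left out, the ranges that crossed 0 were, in sinusoidal-like nuclei, Bmp2 -0.33 to 0.021, Bmp6 -0.55 to 0.0054, Bmper -0.31 to 0.28 and Bmpr1a -0.079 to 0.84. They were Bmpr2 -0.20 to 0.51 and Eng -0.18 to 0.17 (stellate), and Bmp2 -0.26 to 0.81, Bmpr2 -0.21 to 0.43, Eng -0.58 to 0.53 and Id1 -1.48 to 0.86 (hepatocyte). They were Bmp2 -0.089 to 0.021, Bmp6 -0.40 to 0.25, Bmpr2 -0.77 to 0.21 and Eng -0.26 to 0.58 (cholangiocyte), and Bmp5 -0.13 to 0.50, Bmp6 -1.50 to 0.56, Bmpr2 -0.47 to 0.29 and Eng -0.18 to 0.71 (macrophage).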

Other observations

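Classes with too few nuclei to fit also held BMP transcripts. Portal fibroblast-like nuclei had Bmper at 120 and 0 CPM in CKO and 68.1 and 71.8 CPM in WT, from 20, 0, 33 and 7 UMIs, where the 0 comes from 1 nucleus. The portal fibroblast sub-cluster led by Csmd3, with the complement gene C7 second, had Bmp4 at 50.4 CPM from 20 UMIs over the 4 libraries (95% Poisson interval 30.8 to 77.8 CPM, counting error only). Eng in portal fibroblast-like nuclei stood at 96.0 and 0 CPM in CKO and 153 and 61.5 CPM in WT.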
